A study of Mus musculus with 6 samples.

Results

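The 10 mRNAs described here are encoded by mitochondrial DNA (mtDNA) and were chosen by name: mt-Nd1 to mt-Nd6 of respiratory complex I, mt-Cytb of complex III, mt-Co2 and mt-Co3 of complex IV, and mt-Atp6 of complex V. They are 10 of the 13 genes encoded in mtDNA, and of 23474 genes in all, in the table of expression levels. mt-Co1, mt-Atp8 and mt-Nd4l were left out beforehand as poorly estimated, and their values are given separately. Livers came from male C57BL/6J mice aged 17 weeks. Control mice ate a high-fat diet (HFD), and treated mice ate the same kind of diet to which an extract of the herbal medicine Bangpungtongseong-san (BT) had been added at 1.5% (w/w). Feeding started at 5 weeks of age and lasted 12 weeks, with 20 mice in 2 groups of 10. Expression was analysed in 3 HFD and 3 BT libraries, so every group analysed ate the high-fat diet. Whether each library stands for a single mouse or pooled mice is not stated in the labels. The p-values therefore measure library-to-library spread, which may be technical. The comparison asked which liver mRNAs differ when the extract is added to the diet.

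Mitochondrial DNA codes for a small set of hydrophobic core subunits of the respiratory chain, while all other subunits are encoded in the nucleus and imported. The mtDNA is transcribed from both strands as long precursors. Transfer RNAs between the coding regions are cut out, which frees the mRNAs, and most of these then receive a short poly(A) tail. Nearly all the mRNAs come from one precursor, and their levels are known to depend also on processing, tailing and decay. Liver is rich in mitochondria, and mtDNA-encoded mRNAs are among the most abundant in hepatocytes.

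The ends of 4 coding regions show how tightly these are packed and which neighbours share bases, which matters for reading the levels. Sequences are from GENCODE M21 transcripts (GRCm38), written 5′ to 3′. The 43 bases shared by mt-Atp8 and mt-Atp6 (mitochondrial chromosome, 7927 to 7969, heavy-strand transcript) are in capitals in the first pair. The 14 bases in which mt-Nd5 and mt-Nd6, on opposite strands, are complementary (13552 to 13565) are in capitals in the second pair.
mt-Atp8, 3′ end: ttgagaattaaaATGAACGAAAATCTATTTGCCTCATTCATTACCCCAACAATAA
mt-Atp6, 5′ start: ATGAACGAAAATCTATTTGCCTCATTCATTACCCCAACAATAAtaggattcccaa
mt-Nd5, 3′ end: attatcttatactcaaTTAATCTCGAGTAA
mt-Nd6, 3′ end: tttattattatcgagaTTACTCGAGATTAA

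The shared bases made up 21.1% of mt-Atp8 but 6.31% of mt-Atp6, and 0.768% of mt-Nd5 and 2.70% of mt-Nd6. No strand setting is given in the sources used here, so fragments from the shared 14 bases cannot be assigned to mt-Nd5 or mt-Nd6. For the same reason, fragments of the opposite-strand precursor cannot be told apart from mt-Nd6 along its whole length. The levels of mt-Nd6 below carry that limit. In mt-Co3, mt-Nd4 and mt-Cytb the annotated coding region ends in a single T, in capitals in the last 21 bases below, so that the poly(A) tail completes the stop codon. mt-Co2, shown for comparison, carries a complete stop codon.
mt-Co3: ccatttattgatgaggatctT
mt-Nd4: taattacaggcctgacaataT
mt-Cytb: aaatactaaaattatatccaT
mt-Co2: tgatctgcttcaataattTAA

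Levels are in FPKM, a unit that divides fragments by the length of the transcript and by the number mapped in the library. Comparisons between genes are still rough. With BT, mt-Atp8 and mt-Atp6 had means of 86045 and 19686 FPKM, although their coding regions lie on the same mRNA. The depth behind the levels, estimated from the lowest values, was about 13800000 to 15800000 fragments per library. The fewest fragments behind a member's value were about 45212, for mt-Nd6 in BT replicate 1, so counting error is small beside the spread between libraries. Of 7 hepatocyte markers 1 fell with BT, Ttr, from 4539, 5937 and 5188 FPKM to 3003, 3216 and 3009 FPKM (-0.76, limma adjusted p = 0.0157), and none rose. Cps1, another of them, had all BT values above all HFD values (0.58, limma adjusted p = 0.0620). Apoa1 had all BT values below all HFD values and was not called. It stood at 6282, 9069 and 6645 FPKM with HFD and at 4910, 5427 and 5139 FPKM with BT. Over all genes tested, 7.33% were called lower. Lymphocyte markers summed to at most 3.62 FPKM. Of 2 adipocyte markers tested 1 fell, Fabp4, from 35.7, 30.2 and 36.7 FPKM to 12.5, 13.3 and 13.5 FPKM with BT. Cfd, the other, had a positive estimate (0.58) and was not called. Erythroid markers summed to 196 to 333 FPKM with HFD and 119 to 418 FPKM with BT, with none of 5 tested called. Stellate cell markers summed to 89.5 to 134 FPKM with HFD and 67.5 to 86.8 FPKM with BT, with none of 5 tested called and Lrat at 0 in all libraries. Striated muscle is also rich in mitochondria, and its markers summed to 0.0459 to 47.0 FPKM with HFD and 11.002 to 15.5 FPKM with BT. The part of these cells in the results was not tested. In HFD replicate 3 the table lists both Alb and mt-Co1 at 0, whereas elsewhere they reach at least 22791 and 44334 FPKM, and calls of named genes that change without that library are given. The library codes of the HFD set share a letter that differs from the letter shared by the BT set, so library set and diet cannot be told apart.

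mt-Atp6 was lower with BT, and the other 9 mRNAs did not pass the test. With BT, mt-Nd2, mt-Co2, mt-Atp6, mt-Co3, mt-Nd6 and mt-Cytb lay below all HFD libraries, whereas mt-Nd1, mt-Nd3, mt-Nd4 and mt-Nd5 overlapped between the groups. The 10 mRNAs together held 18.8%, 22.7% and 25.9% of the summed FPKM of the table in HFD replicates 1 to 3, against 17.7%, 17.5% and 18.04% in BT replicates 1 to 3. The sum of HFD replicate 3 lacks Alb and mt-Co1, which are listed at 0 there. Without Alb and the other mtDNA genes in the sum, the shares were 21.98%, 26.6% and 28.6% with HFD and 21.9%, 21.8% and 22.6% with BT, so HFD replicate 1 then lay inside the BT range. Their summed level was 192214 ± 32863 FPKM with HFD and 142099 ± 3249 FPKM with BT (SD, n = 3 each). In bulk tissue, fewer cells of a type and less RNA per cell cannot be told apart.

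In the test across all genes (limma on log2(FPKM + 1), two-sided, adjusted p at most 0.05), 1 of the 10 mRNAs was called lower and none higher. For comparison, 7.33% of the 10476 genes tested were called lower, 6.01% were called higher, and 13.3% in either direction. The share of members called is thus near the background. For 6 of 10 members all BT values lay below all HFD values, against 16.1% of all genes tested. No member lay wholly above, against 23.2%, and in either direction the groups did not overlap for 39.3% of genes. The median change of the 10 was -0.45 on the log2 scale, against 0.07 over all genes tested, and 9 of 10 estimates were negative. mt-Nd4, close to 0, turned positive when libraries were rescaled to the same sum (0.04).

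**Figure D1:**
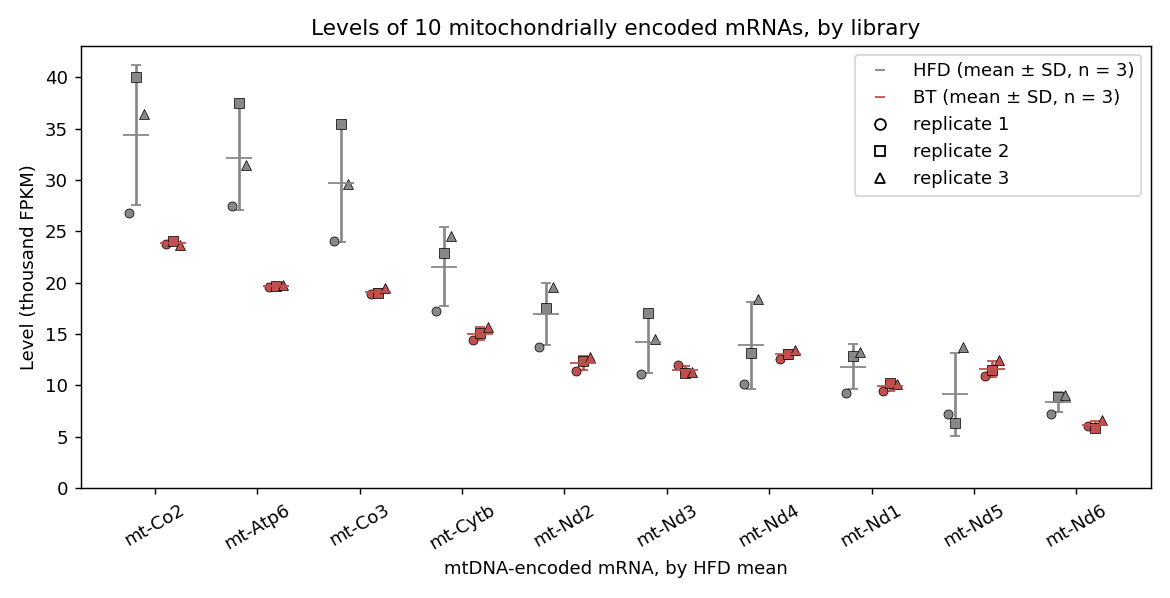
Level of each mtDNA-encoded mRNA in units of 1000 FPKM (vertical axis, from 0) in every library, ordered by HFD mean; points are libraries, with symbols for replicate numbers, and bars are mean ± SD (n = 3). The BT points lie close together while the HFD points spread widely, and HFD replicate 1 is the lowest HFD library for all but mt-Nd5.

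mt-Atp6 encodes the ATP synthase subunit that lines the proton path through the inner membrane. It stood at 27483, 37489 and 31489 FPKM in HFD replicates 1 to 3 and at 19587, 19679 and 19792 FPKM in BT replicates 1 to 3. The groups did not overlap, and the BT values were nearly identical. It fell by 0.70 ± 0.17 on the log2 scale (SE, limma, adjusted p = 0.0372), or 1.63-fold in means. The call was lost in 7 of the 19 other settings. These were leaving out HFD replicate 2 (adjusted p = 0.0677) or any 1 BT library (adjusted p = 0.116 to 0.142), no filter on low values (adjusted p = 0.303), quantile normalization (-0.36, adjusted p = 0.0932) and removal of a length and GC trend fitted to each library (-0.40, adjusted p = 0.0774). Without HFD replicate 3 it held (-0.71, adjusted p = 0.0374). The call covers the mt-Atp6 coding region alone. mt-Atp8, which is translated from the same mRNA and was left out beforehand, went the opposite way (0.55, limma adjusted p = 0.133). Whether the mRNA they share fell was not tested.

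The complex IV mRNAs came next. mt-Co2, whose protein takes electrons from cytochrome c, stood at 26810, 39999 and 36479 FPKM with HFD and at 23752, 24033 and 23705 FPKM with BT. mt-Co3, a further core subunit of the same enzyme, stood at 24027, 35454 and 29581 FPKM with HFD and at 18906, 19008 and 19448 FPKM with BT. For both, all BT values lay below all HFD values, with HFD replicate 1 the nearest. The differences did not pass: -0.51 for mt-Co2 (adjusted p = 0.110, 95% interval -0.95 to -0.07) and -0.62 for mt-Co3 (adjusted p = 0.0591, 95% interval -1.04 to -0.19). These intervals are not adjusted for the number of genes. mt-Co3 passed in 7 of the 19 other settings of the fit, and mt-Co2 in 1, without HFD replicate 1.

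mt-Cytb encodes cytochrome b, the only mtDNA-encoded subunit of complex III, which oxidises ubiquinol. Its levels were 17256, 22906 and 24572 FPKM with HFD and 14382, 15064 and 15701 FPKM with BT. The groups did not overlap, but the difference of -0.50 ± 0.18 (SE) did not pass (limma, adjusted p = 0.0944).

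The 6 complex I mRNAs were less uniform, and none passed. mt-Nd2, which encodes an antiporter-like subunit of the proton-pumping arm, stood at 13708, 17529 and 19607 FPKM with HFD and at 11404, 12359 and 12767 FPKM with BT (-0.46, limma adjusted p = 0.111). mt-Nd6, the only member transcribed from the light strand, stood at 7231, 8842 and 9088 FPKM with HFD and at 6032, 5838 and 6605 FPKM with BT (-0.44, limma adjusted p = 0.0815). In these 2 the groups did not overlap. mt-Nd1, whose protein borders the ubiquinone site, stood at 9278, 12854 and 13289 FPKM with HFD and at 9416, 10235 and 10152 FPKM with BT. Here HFD replicate 1 lay below all BT libraries (-0.23, limma adjusted p = 0.388), while removal of the length and GC trend gave an estimate of 0.04. mt-Nd3 stood at 11130, 17010 and 14487 FPKM with HFD and at 11988, 11226 and 11287 FPKM with BT, again with HFD replicate 1 below all BT libraries (-0.28, limma adjusted p = 0.312).

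The mRNAs of the distal proton-pumping subunits, mt-Nd4 and mt-Nd5, had the highest estimates. mt-Nd4 stood at 10116, 13143 and 18420 FPKM with HFD and at 12546, 13033 and 13469 FPKM with BT. The BT values lay inside the HFD range (-0.05, limma adjusted p = 0.890). mt-Nd5 stood at 7233, 6369 and 13763 FPKM with HFD and at 10899, 11503 and 12480 FPKM with BT. HFD replicate 3 was the highest of all libraries and the other 2 HFD libraries the lowest. Over all libraries the difference was 0.43 (limma, adjusted p = 0.299, 95% interval -0.19 to 1.06). Without HFD replicate 3, which lists mt-Co1 at 0, mt-Nd5 was called higher with BT (0.77, adjusted p = 0.0192), and mt-Nd4 stood at 0.17 (adjusted p = 0.445).

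HFD replicate 1 was the lowest HFD library for 9 of the 10 mRNAs, all but mt-Nd5. For 4 of the 10, mt-Nd1, mt-Nd3, mt-Nd4 and mt-Nd5, it lay at or below the highest BT value. Without it, 6 members were called lower, mt-Atp6, mt-Co2, mt-Co3, mt-Cytb, mt-Nd2 and mt-Nd6, with changes of -0.80 for mt-Atp6 and -0.54 for mt-Nd6 at the ends. In that setting 814 of all 10476 genes tested were called lower. Leaving out HFD replicate 3 left mt-Atp6 alone called lower, and leaving out HFD replicate 2 or any 1 BT library left none. Each of the 10 mRNAs had the larger SD with HFD, from 2.53 to 48.9 times that with BT. The coefficient of variation of mt-Atp6 was 15.7% with HFD and 0.523% with BT, and that of mt-Nd5 44.3% and 6.86%. The difference in spread was not tested.

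**Figure D2:**
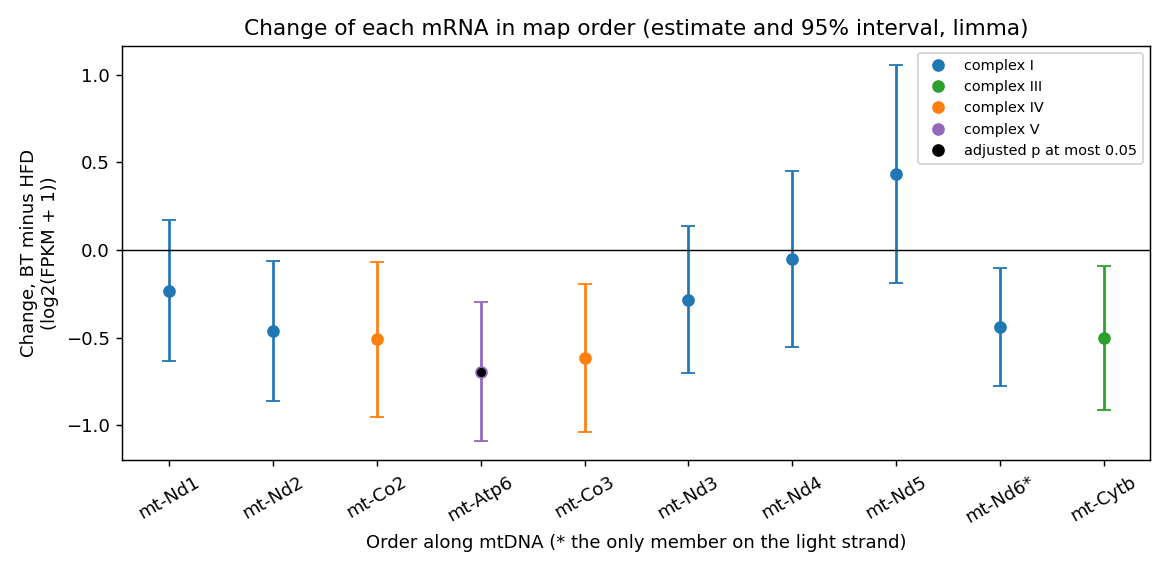
Change of each mRNA (BT minus HFD, log2(FPKM + 1) scale, with limma's unadjusted 95% interval) in order along mtDNA, coloured by respiratory complex; the black centre marks mt-Atp6, the mRNA that passed the test. Estimates reach -0.70 at mt-Atp6 and 0.43 at mt-Nd5, and the intervals of mt-Nd1, mt-Nd3, mt-Nd4 and mt-Nd5 include 0.

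In order along mtDNA the estimates went from -0.23 at mt-Nd1 (2751 to 3707) to -0.70 at mt-Atp6 (7927 to 8607) and 0.43 at mt-Nd5 (11742 to 13565), and back to -0.50 at mt-Cytb (14145 to 15288). All positions are those of coding exons without introns in GENCODE M21 (GRCm38), which may not be the authors' build. The levels were also set against the mean log2 level of the 10 mRNAs in the same library, which removes any scaling between libraries. On that scale 8 of the 10 did not overlap between the groups. Relative to the mean of the 10, mt-Nd1, mt-Nd4 and mt-Nd5 were higher with BT, and mt-Nd2, mt-Co2, mt-Co3, mt-Atp6 and mt-Cytb lower. For mt-Nd1 this was so although its own level had an estimate of -0.23. The values of a library cancel out by construction, so a large shift of mt-Nd5 moves the others the opposite way. No share over all genes was computed on this scale, so the count has no background beside it. mt-Nd5 stood at -0.92, -1.49 and -0.49 with HFD and at -0.25, -0.21 and -0.13 with BT. mt-Atp6 stood at 1.01, 1.06 and 0.70 with HFD and at 0.60, 0.57 and 0.53 with BT. The order of the means differed accordingly: mt-Nd5 was lowest but for mt-Nd6 with HFD, and stood at 11627.5 ± 798 FPKM beside mt-Nd3 at 11500 ± 424 FPKM with BT, within their SDs. The most abundant, mt-Co2, mt-Atp6 and mt-Co3, kept that order in the means of both groups, but with HFD they differed by less than their SDs.

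The ratio of mt-Nd5 to mt-Co2 was 0.270, 0.159 and 0.377 with HFD and 0.459, 0.479 and 0.526 with BT. By contrast the neighbours mt-Atp6 and mt-Co3, whose coding regions overlap by 1 base, had ratios of 1.06 to 1.14 with HFD and 1.02 to 1.04 with BT. The light-strand mRNA mt-Nd6 stood at -1.12 ± 0.09 with HFD and -1.24 ± 0.07 with BT (SD, n = 3 each) as a log2 ratio to the mean of the other 9, so its difference from them was of the size of the spread. These ratios were chosen with the levels known and were not tested.

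**Figure D3:**
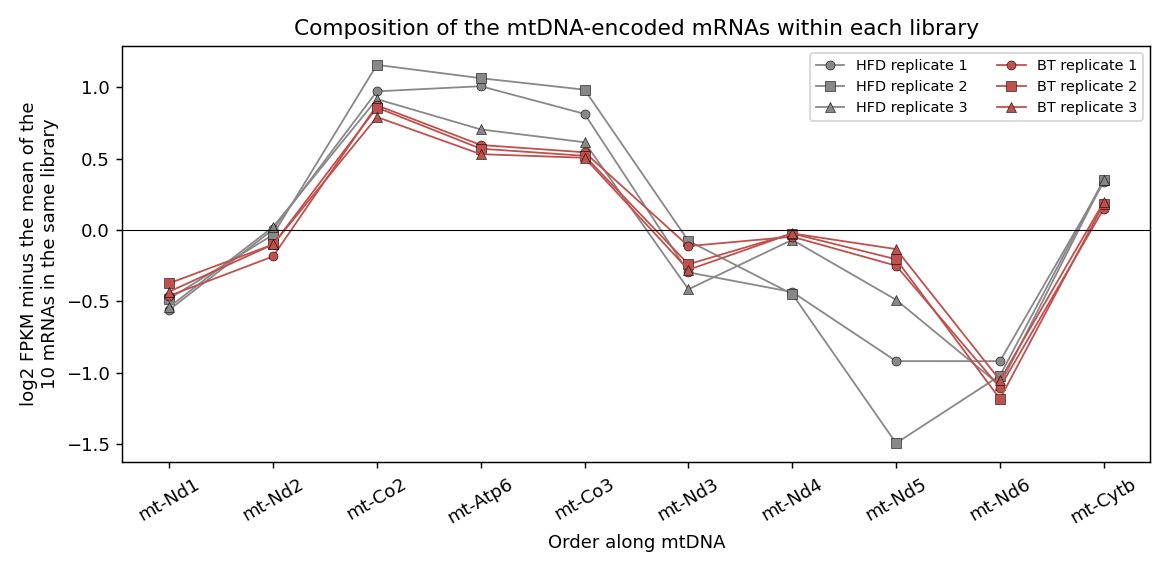
Level of each mRNA as log2 FPKM minus the mean of the 10 mRNAs in the same library (vertical axis), in order along mtDNA; each line is a library, grey for HFD and red for BT. The BT lines run together, and the HFD lines part from them most at mt-Nd5, where HFD replicate 2 lies at -1.49.

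Among nuclear genes with transcripts over 500 bases, the median change rose with transcript length. Among the members, a relation of length and change rested largely on mt-Nd5. The longest member, mt-Nd5 with 1824 bases, had the highest estimate, followed by mt-Nd4 with 1378 bases. Over the 10 members Pearson's r between length and change was 0.74 and Spearman's rho 0.45, and r was 0.38 without mt-Nd5. These values describe mRNAs of the same libraries and, but for mt-Nd6, of the same precursor. Among genes encoded in the nucleus the median change was -0.26 for 57 genes with transcripts under 500 bases, -0.49 for 461 genes of 500 to 1000 bases, -0.13 for 1859 genes of 1000 to 2000 bases, 0.06 for 4300 genes of 2000 to 4000 bases and 0.20 for 3713 longer ones. After removal of that trend from each library, together with that on GC content, the median change of the members was -0.17 and no member passed. The members' r with length was then 0.69.

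The 3 mRNAs left out are given as values. mt-Co1, the catalytic subunit of complex IV, was at 45802 and 53659 FPKM in HFD replicates 1 and 2 and at 44334, 46534 and 46281 FPKM with BT. mt-Atp8, an accessory subunit of ATP synthase with 204 bases, was at 49193, 53439 and 76944 FPKM with HFD and at 78950, 88068 and 91116 FPKM with BT. These BT values lay above all HFD values (0.55, limma adjusted p = 0.133), opposite to mt-Atp6, although both proteins are translated from the same mRNA. mt-Nd4l, 297 bases long, shares its mRNA with mt-Nd4 but is listed at 0 to 4.41 FPKM, against 10116 FPKM or more for mt-Nd4.

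Many nuclear partners of the same complexes were lower with BT. Of 73 nuclear-encoded subunits of complexes I, III, IV and V, 53 fell and none rose, against 7.33% of all genes tested called lower. Their median change was -0.62, and for 64 of them all BT values lay below all HFD values, against 16.1% of all genes tested. After removal of the length and GC trend the median was -0.29. In complex I, 27 of 36 fell (median -0.60, beside -0.26 for the 6 mtDNA-encoded mRNAs), and in complex III, 6 of 9 fell (median -0.54, beside -0.50 for mt-Cytb). In complex IV all 10 fell (median -0.84, beside -0.56 for mt-Co2 and mt-Co3), and in complex V, 10 of 18 fell (median -0.56, beside -0.70 for mt-Atp6). The complex V list includes Atpif1, which encodes an inhibitory factor of ATP synthase and not a subunit, and which was called lower (-0.81, limma adjusted p = 0.0175). Cox4i1 was listed for complex IV too but was not found among the genes measured. Whether mtDNA-encoded and nuclear subunits differ was not tested.

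Among the named partners, Cox5a, a complex IV subunit of the matrix side, went from 228, 222 and 188 FPKM with HFD to 89.3, 85.1 and 79.2 FPKM with BT (-1.32 ± 0.11, SE, limma adjusted p = 0.00127). Ndufc1, a small accessory subunit of complex I, fell by 1.14 (limma, adjusted p = 0.00207). Uqcrq, a small subunit of complex III, fell by 1.19 (limma, adjusted p = 0.00629), and Atp5l, which encodes ATP synthase subunit g, by 0.88 (limma, adjusted p = 0.00644). These 4 passed in each of the 19 other settings of the fit. Of the other named partners, Ndufa6, Cox8a, Cox6c, Cox7a2 and Atp5d passed in all settings too, while Ndufv3, Ndufa12, Uqcr10, Uqcrh, Uqcr11, Atp5mpl and Atp5j2 missed the threshold at least without BT replicate 1. The 3 partners with positive estimates, named after their values were seen, were Ndufs1 (0.76, limma adjusted p = 0.0758, called higher without HFD replicate 1), Atp5a1 (0.22, limma adjusted p = 0.237) and Uqcrc2 (0.07, limma adjusted p = 0.640, and slightly below 0 with median-of-ratios scaling). The median transcript length of the partners was 1014 bases. The count of lower partners was 26 with the length and GC trend removed, and 11, 18 and 28 without BT replicates 1, 2 and 3.

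**Figure D4:**
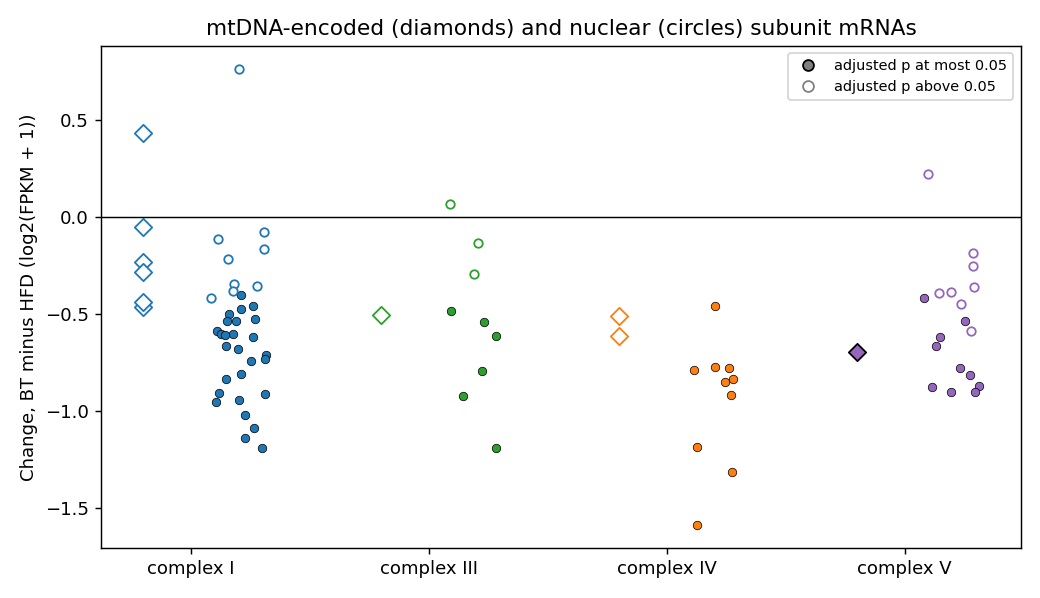
Change (BT minus HFD, log2(FPKM + 1) scale) of mtDNA-encoded subunit mRNAs (diamonds) and nuclear-encoded ones (circles) by respiratory complex; filled symbols passed the test. All 10 nuclear complex IV partners are filled and below 0, while mt-Co2 and mt-Co3 are open at -0.51 and -0.62.

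Complex II, which has no mtDNA-encoded subunit, had none of its 4 genes called. Sdhb, its iron-sulfur subunit, differed by -0.36 (limma, adjusted p = 0.113) and Sdha, its flavoprotein, by 0.37 (limma, adjusted p = 0.126, called higher without HFD replicate 1).

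Of 18 genes of mtDNA transcription and replication none passed, with a median change of 0.07. The smallest p-values belonged to Primpol, a primase-polymerase (0.49, limma adjusted p = 0.0718, called higher without HFD replicate 3 at 0.62 and 0.0357), and Ssbp1, the mitochondrial single-stranded DNA-binding protein (-0.32, limma adjusted p = 0.0896). Chosen after their values were seen, Tfam, which packages mtDNA and starts transcription, differed by 0.49 (limma, adjusted p = 0.239) and Polrmt, the mitochondrial RNA polymerase, by -0.37 (limma, adjusted p = 0.337). In both, the groups overlapped.

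Of 22 genes of mitochondrial RNA processing and stability 1 fell and 1 rose, with a median change of 0.13. Over all genes tested, 7.33% were called lower and 6.01% higher. Slirp encodes an RNA-binding protein that, in a complex with LRPPRC, protects mtDNA-encoded mRNAs from decay. It went from 38.8, 53.8 and 46.3 FPKM with HFD to 19.6, 19.0 and 22.1 FPKM with BT, without overlap (-1.15 ± 0.13, SE, limma adjusted p = 0.00526), and passed in each of the 19 other settings. Lrpprc, named after its values were seen as the partner of Slirp, went the other way, from 22.7, 19.6 and 21.6 FPKM to 27.7, 27.7 and 25.7 FPKM, which did not pass (0.33, limma adjusted p = 0.0631). It did pass with a filter of 5 FPKM, and when libraries were scaled to the sum without mtDNA genes and Alb. Angel2, an RNA phosphatase, rose by 0.58 (limma, adjusted p = 0.0171), a call that was lost without any 1 BT library.

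None of 14 mitochondrial translation factors passed. Tsfm, an elongation factor, differed by -0.58 (limma, adjusted p = 0.0621), and Mtif3, an initiation factor, by 0.23 (limma, adjusted p = 0.133). Tsfm was called without HFD replicate 1 (adjusted p = 0.0135), with the replicate block (adjusted p = 0.0288) and with median-of-ratios or quantile scaling (adjusted p = 0.0472 in both), and Mtif3 with scaling to the sum without mtDNA genes and Alb (0.37, adjusted p = 0.0461), all by limma. Of 12 regulators of mitochondrial biogenesis 1 rose, against 6.01% of all genes tested called higher. It was Prkaa2, a catalytic subunit of the energy sensor AMPK (0.51, limma adjusted p = 0.0447). The Prkaa2 call was lost without each library in turn except HFD replicate 3. It was also lost without a filter, with TPM and after removal of the length and GC trend. Ppargc1a, the coactivator PGC-1a, named after its values were seen, stood at 1.90 ± 0.90 and 2.77 ± 0.78 FPKM (SD, n = 3 each, 0.40, limma adjusted p = 0.253). Of 14 genes taken as markers of mitochondrial mass 2 fell, the outer-membrane protein genes Tspo (-0.49, limma adjusted p = 0.0279) and Tomm22 (-0.46, limma adjusted p = 0.0319), and 1 rose, Immt of the inner-membrane cristae junctions (0.38, limma adjusted p = 0.0412). This stands beside 7.33% of all genes tested called lower and 6.01% called higher. Their median change was -0.02, and their summed level was 932 to 1007 FPKM with HFD and 972 to 1014 FPKM with BT. All 3 calls were lost without any 1 BT library, without a filter and after removal of the length and GC trend, where Tspo stood at -0.07 (limma, adjusted p = 0.625). Without HFD replicate 3, Tomm22 (limma, adjusted p = 0.0538) and Immt (limma, adjusted p = 0.0598) missed the threshold, as they did without HFD replicate 2. Tomm22 also missed it with TPM and with scaling to the sum without mtDNA genes and Alb, and Immt with median-of-ratios scaling and without a variance trend.

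Among all genes tested that are not encoded in mtDNA, the profiles over the 6 libraries nearest to the mean profile of the members were those of Sdsl, Ssbp4, Mknk2 and Ppif. Likeness was the root mean square difference of log2 values after centring each gene, which was 0.047 for Sdsl, 0.049 for Ssbp4, 0.054 for Mknk2 and 0.059 for Ppif. Among the members themselves it ran from 0.063 for mt-Nd1 to 0.48 for mt-Nd5. Likeness was taken on log2(FPKM + 1), which shrinks the differences of low genes. Sdsl and Ssbp4 are low, with HFD means of 4.78 and 1.73 FPKM. Ppif encodes cyclophilin D of the mitochondrial matrix and stood at 27.3, 38.1 and 38.9 FPKM with HFD and at 24.0, 26.1 and 25.7 FPKM with BT. Its difference did not pass (-0.43, limma adjusted p = 0.0784), but did without HFD replicate 1 and with the replicate block.

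**Figure D5:**
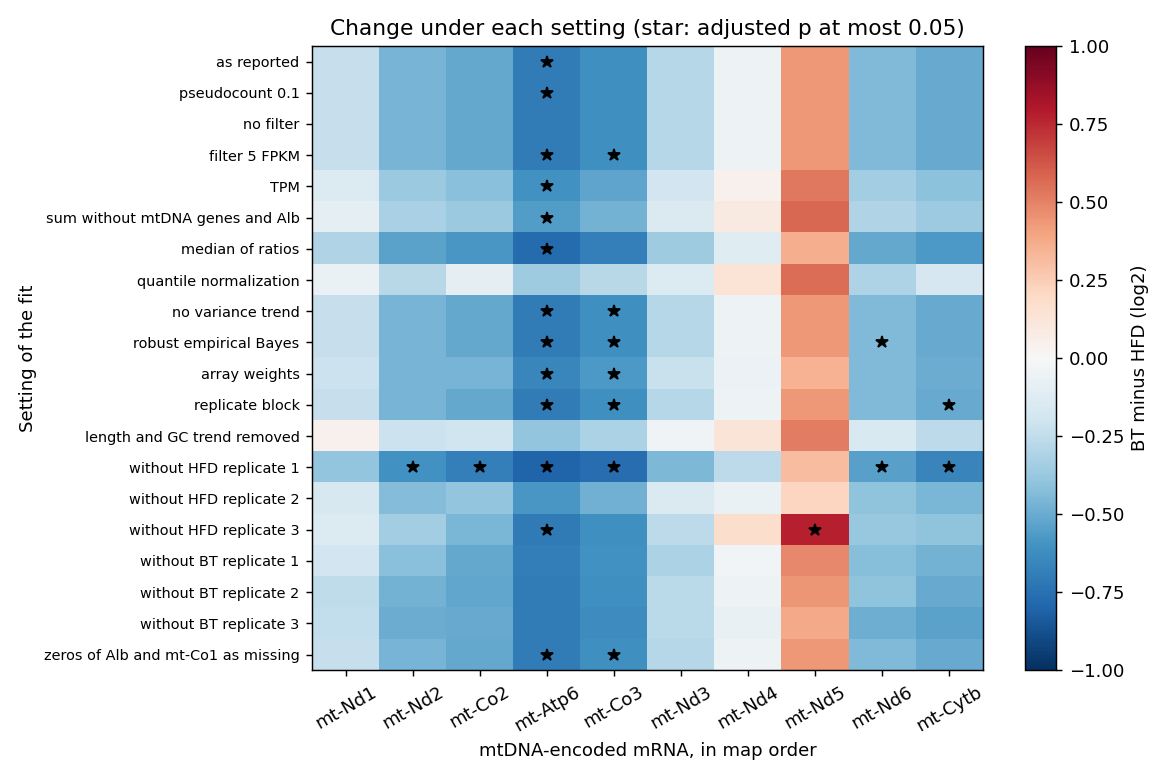
Change of each mRNA (colour, BT minus HFD on the log2 scale) in each setting of the fit (rows), starred where adjusted p was at most 0.05. mt-Atp6 is negative in every row and starred in 12 of the 19 alternatives, mt-Nd5 is positive in every row and starred without HFD replicate 3 alone.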

How the data were processed

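The deposited table gives FPKM for 23474 Ensembl mouse genes, 1 column per library, computed by the authors. Cufflinks 2.1.1, STAR 2.4.0 and CASAVA 1.8.2 appear in the submitters' processing notes without a stated role, and libraries were built from mRNA with a TruSeq kit per the labels' protocols. The authors' build, annotation and strandedness were not given in the sources used here. Names, lengths and sequences came from GENCODE M21 (GRCm38), which named 22671 identifiers. The depth estimate takes the median of FPKM times length in kilobases between 0.03 and 0.1, in genes with 1 transcript over 1000 bases, as 1 fragment. It is rough.

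Groups and replicate numbers came from titles. The test ran on log2(FPKM + 1) of the 10476 genes whose mean reached 1 FPKM. It used limma 3.58.1 in R 4.3.3 (lmFit, eBayes with variance trend, 4 residual degrees of freedom). Benjamini-Hochberg adjustment covered all genes tested, with a threshold of 0.05. Fold changes on this scale understate those of low genes. An exact permutation test of 3 against 3 has a smallest p of 0.1 and was not used.

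Members and lists were chosen with earlier results of these data known, so lists are described by counts and medians. Named genes were the members, up to 4 called genes of each mitochondrial list with the smallest p (2 where none was called), and the 4 nearest profiles. Another 7 genes were named after their values were seen. The mtDNA rRNAs were not analysed here. The 19 alternatives comprised another pseudocount (0.1), other filters, scalings and variance models, a replicate block, removal of length and GC trends (natural splines with 5 degrees of freedom), leaving out each library and, chosen after seeing the data, treating the 0 values of mt-Co1 and Alb as missing. Figures used matplotlib 3.10.9 in Python 3.11.15.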

Additional observations from a re-analysis of the deposited data

How the results depend on the processing

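Across all genes 630 were called higher and 768 lower. The split was 459 and 862 with median-of-ratios scaling, and 1162 and 520 when libraries were scaled to the sum without mtDNA genes and Alb, which moved the median change of all genes from 0.07 to 0.19. Without a filter on low values 200 and 345 were called, and 445 were lower after removal of the length and GC trend. Leaving out 1 library gave 49 to 855 higher and 124 to 814 lower genes, the fewest without BT replicate 1. Both counts moved by over 1.5 times without HFD replicate 2 and without each BT replicate. Of the members 1 was lower. It was 0 without a filter, with quantile normalization and after removal of the length and GC trend, 2 with a filter of 5 FPKM, without a variance trend, with array weights and with the 0 values of mt-Co1 and Alb as missing, and 3 with robust empirical Bayes. Leaving out 1 library gave 0 to 6 lower and 0 to 1 higher members. Of the nuclear partners 53 were lower, 30 without a filter and 26 after that removal, and 11 to 51 lower and 0 to 1 higher without 1 library. Beyond the smaller number of libraries, the cause of these shifts was not tested. Without Alb and the other mtDNA genes the members' share of summed FPKM was 25.7% with HFD and 22.1% with BT, against 22.5% and 17.7% of the whole table, and the groups overlapped.

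Estimates that changed sign were those of mt-Nd4 with rescaling to TPM (0.041), scaling without mtDNA genes and Alb (0.089), quantile normalization (0.14), the length and GC trend removed (0.13) and without 1 library (-0.26 to 0.17, positive without HFD replicate 3), of mt-Nd1 (0.042), Sdsl (0.025) and Ssbp4 (0.17) after the same removal, and of Uqcrc2 with median-of-ratios scaling (-0.00433). None of these genes was called in any setting.

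Same-numbered libraries share only a number. Their deviations from the group means correlated at 0.163, 0.0972 and 0.147 over genes, and each library correlated best with its own number, a hint from the data and not the design. With the replicate block 859 genes were higher and 949 lower, 3 members were lower (mt-Atp6, mt-Co3 and mt-Cytb), and 1 nuclear partner was higher.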
